A study of Mus musculus with 4 samples.

Results

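Tetraspanins are small proteins that cross the membrane several times and hold integrins, immune receptors and other partners together in patches of membrane. Cells put several of them, above all CD9, CD63 and CD81, into the vesicles they release, so these proteins serve as the usual markers of exosomes. CD37, CD53 and TSPAN32 are largely kept to blood cells, whereas CD63 sits mostly in late endosomes and lysosomes and reaches the cell surface when those compartments fuse with it. Transcripts of 8 tetraspanin genes (Cd9, Cd63, Cd81, Cd82, Cd151, Cd37, Cd53 and Tspan32) were followed here in immune cells from mouse melanomas. The members were found in the files by gene symbol, and each symbol was present once among the 30406 genes shared by both deposited matrices (32285 genes in the CD45 sort and 31053 in the T cell sort).

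All cells came from subcutaneous tumors of B16-F10 melanoma cells carrying cytoplasmic ZsGreen (ZsG) under doxycycline control, grown in wild-type C57BL/6 mice from a line that is 1 clone. Mice of all groups drank doxycycline water for 4 days, tumors were taken on day 8, and leukocytes were sorted by ZsG fluorescence, which marks material made by the tumor. One experiment sorted CD45-positive cells and a separate one CD45-positive, TCRb-positive T cells, each by a ZsG-negative and by a ZsG-positive gate, and each gate gave 1 droplet library, so there were no replicates, and how many tumors went into a library is not known here. The CD45 sort gated brightly fluorescent cells, so its ZsG-negative gate also held many lymphocytes with weaker ZsG.

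After filtering, the ZsG-negative library of the CD45 sort held 4698 cells at a median of 5769.5 UMIs (unique molecular identifiers, each standing for 1 captured RNA molecule), and its ZsG-positive library 4124 cells at a median of 9931. The T cell sort held 659 and 780 cells, with medians of 5799 and 6501 UMIs. For the T cell sort the sample names and the name of the combined table give opposite orders of the libraries. The library of 2396 barcodes was taken as ZsG-positive and that of 1136 barcodes as ZsG-negative, and the direction of every T cell sort difference rests on that. Between these libraries, ZsG-negative first, Treg-like cells were 35 of 659 and 114 of 780 and CD8-Tex-like cells 67 and 153. At least 10 UMIs of melanocyte markers were found in 17 of 289 and 2 of 1099 barcodes removed for few CD3 transcripts. Among barcodes outside the limits on genes and mitochondrial UMIs they were found in 14 of 188 and 35 of 517. None of these counts was used to assign the libraries to gates. Only 6 barcodes were shared by both CD45 libraries and 1 by both T cell libraries. Levels are UMIs of a gene scaled to 1000000 UMIs of the same cells (CPM), and ranges in brackets are exact 95% intervals that cover counting error only. A log2 ratio between gates sets the ZsG-positive over the ZsG-negative level, with 0.5 added to each sum. UMIs of a 3' assay are compared here for 1 gene between groups of cells, never between genes. A lower level in a class can reflect fewer cells with the transcript, fewer transcripts per cell or more UMIs of other genes per cell. The share of cells with a UMI is therefore given beside the level where it matters. Shares said to be thinned or at equal depth come from cells thinned to 2000 UMIs, and other shares and cell counts are unthinned. Shallower cells were left out of thinning (10 and 4 cells of the CD45 sort and 6 and 18 of the T cell sort, ZsG-negative first).

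On GRCm38 (GENCODE), all 8 are protein-coding. Cd9 lies at chr6:125460266-125494791 on the minus strand, Cd63 at chr10:128900989-128912822 on the plus strand, Cd82 at chr2:93419111-93463140 on the minus strand and Cd53 at chr3:106759921-106790149 on the minus strand. The other members are on chromosome 7, with Cd37 at chr7:45233632-45239115 on the minus strand, Cd151 at chr7:141467392-141471473, Tspan32 at chr7:143005046-143019644 and Cd81 at chr7:143052739-143067934, the last 3 on the plus strand. Tspan32 and Cd81 are thus close neighbours, yet their levels did not follow the same order over the classes, as described further on. The bases before the RefSeq start (GRCm38.p6) are shown for these neighbours and for Cd63 and Cd53, the former with the highest log2 ratio between gates and the latter found in every class, to set a GC-rich start beside starts with other features. Capitals mark GGGCGG, the core of a GC box, and GAGGAA or its complement TTCCTC, an ETS core as in PU.1 sites, and no marked stretch overlaps another.
Cd81, chr7:143052500-143052738, plus strand: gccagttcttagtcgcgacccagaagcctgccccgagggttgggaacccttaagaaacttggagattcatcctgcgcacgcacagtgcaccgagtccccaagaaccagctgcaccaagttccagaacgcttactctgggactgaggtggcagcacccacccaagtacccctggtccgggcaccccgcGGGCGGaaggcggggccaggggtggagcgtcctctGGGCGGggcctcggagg
Tspan32, chr7:143004796-143005045, plus strand: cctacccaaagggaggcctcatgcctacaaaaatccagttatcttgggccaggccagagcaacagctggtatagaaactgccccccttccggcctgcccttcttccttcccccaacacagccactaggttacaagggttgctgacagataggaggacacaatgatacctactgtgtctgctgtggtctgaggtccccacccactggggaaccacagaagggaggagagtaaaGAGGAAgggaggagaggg
Cd63, chr10:128909095-128909344, plus strand: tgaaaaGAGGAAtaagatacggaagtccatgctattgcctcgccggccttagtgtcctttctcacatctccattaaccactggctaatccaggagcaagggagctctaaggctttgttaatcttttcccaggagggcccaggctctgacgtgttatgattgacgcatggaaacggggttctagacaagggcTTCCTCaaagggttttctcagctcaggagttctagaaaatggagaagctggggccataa
Cd53, chr3:106790150-106790399, minus strand: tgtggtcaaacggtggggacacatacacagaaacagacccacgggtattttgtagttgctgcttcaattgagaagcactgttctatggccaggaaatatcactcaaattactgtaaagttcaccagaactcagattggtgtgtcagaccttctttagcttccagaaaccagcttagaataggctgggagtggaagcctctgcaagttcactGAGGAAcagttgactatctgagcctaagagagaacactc

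The window before Cd81 was 65.6% G and C with 16 CpG dinucleotides over its 250 bases, against medians of 52.4% and 6 over 32851 RefSeq promoter windows of mouse, whereas the window before Tspan32 held 55.6% and 1, that before Cd63 48.8% and 6 and that before Cd53 45.2% and 2. The Cd63 window lies inside the gene as GENCODE draws it, which has an earlier start. On either strand, GGGCGG was found in 32.7% of all windows and in 6 of the 12 windows of members (Cd9, Cd37, Cd81, Cd82 and Cd151). GAGGAA was found in 23.3% of all windows and in 5 of the 12 (Cd37, Cd53, Cd63, Cd82 and Tspan32). CACGTG, the core of the lysosomal CLEAR element, was in 6.02% of all windows and in 1 member window, of Cd37, and TATAAA was in 12.4% and in none of the member windows. These matches describe letters in the windows and not binding sites.

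Cells were grouped by clusters that were formed without the 8 members among the variable genes and named from marker genes. In the CD45 sort, NK cell/ILC-like cells (2516 ZsG-negative and 113 ZsG-positive) and T cell-like cells (1536 and 217) made up most of the ZsG-negative library, and monocyte/macrophage-like cells (257 and 3153) most of the ZsG-positive one. DC2-like cells numbered 66 and 420, DC1-like cells 29 and 95, pDC-like cells 241 and 54 and Ccr7-positive DC-like cells 14 and 71. The B cell-like cluster had 39 ZsG-negative cells and 1 ZsG-positive cell. No value is given for a group of fewer than 20 cells in a library.

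**Figure D1:**
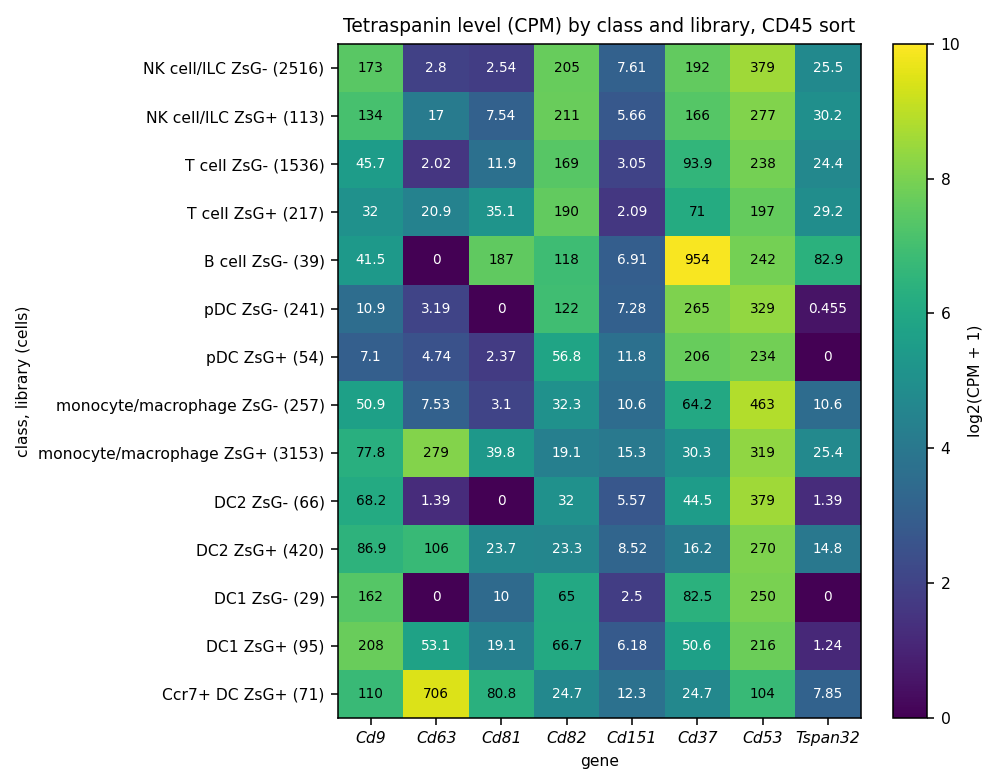
Level of each tetraspanin (columns) in each immune class and library of the CD45 sort (y axis, with the number of cells), colored by log2(CPM + 1). Cd63 is bright in the ZsG-positive Ccr7-positive DC-like (706 CPM) and monocyte/macrophage-like cells (279 CPM) and dark in the ZsG-negative classes, while Cd53 is green or brighter throughout.

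Each gene had its own order of classes. Cd63 was highest in ZsG-positive Ccr7-positive DC-like cells at 706 CPM (652 to 763), with a UMI in 63 of 71 cells. ZsG-positive monocyte/macrophage-like cells followed at 279 CPM (274 to 284), then ZsG-positive DC2-like cells at 106 (98.4 to 115) and DC1-like cells at 53.1 (42.5 to 65.6), and none of these 4 intervals overlapped. ZsG-positive T cell-like cells (20.9 CPM, 15.9 to 26.9) and NK cell/ILC-like cells (17.0 CPM, 7.76 to 32.2) overlapped each other. All ZsG-negative classes lay at or below 7.53 CPM, and 0 UMIs were counted in 39 B cell-like cells, which allows up to 25.5 CPM.

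Cd81, known as a part of the B cell coreceptor, was highest in ZsG-negative B cell-like cells at 187 CPM (123 to 272), with a UMI in 21 of 39 cells. ZsG-positive Ccr7-positive DC-like cells were next at 80.8 CPM (63.2 to 102), then ZsG-positive monocyte/macrophage-like cells at 39.8 (37.8 to 41.9) and T cell-like cells at 35.1 (28.6 to 42.7), the last pair with overlapping intervals. In the pDC-like cells 0 UMIs were counted in the ZsG-negative and 1 in the ZsG-positive library. Cd37, which restrains signaling in B cells, likewise led in B cell-like cells at 954 CPM (801 to 1127), with a UMI in 37 of 39 cells. Its next levels were 265 CPM (244 to 288) and 206 (165 to 254) in the ZsG-negative and ZsG-positive pDC-like cells, followed by NK cell/ILC-like cells at 192 (185 to 199) and 166 (133 to 204). Ccr7-positive DC-like cells (24.7 CPM) and ZsG-positive DC2-like cells (16.2 CPM) were at the low end for Cd37.

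Cd9, which binds integrins and partners such as EWI-2, was highest in ZsG-positive DC1-like cells at 208 CPM (186 to 232), above ZsG-negative NK cell/ILC-like cells at 173 (167 to 180) and ZsG-negative DC1-like cells at 162 (125 to 207), whose interval overlapped both of the others. Within the NK cell/ILC-like class of the ZsG-negative library, Cd9 was at 242 CPM in the Klra8-led cluster, 163 in the Xcl1-led cluster and 76.9 in the granzyme-rich Gzmc-led cluster. Median UMIs per cell were 3910.5, 5931.5 and 15481.5 in these clusters. A Cd9 UMI was in 60.3%, 64.5% and 60.7% of their cells without thinning and in 38.6%, 31.4% and 15.9% of thinned cells. The lowest Cd9 levels were in pDC-like cells, at 10.9 and 7.10 CPM. Cd82, also called Kai1 and studied as a brake on cell movement, went nearly the other way inside the NK class, with 153 CPM in Klra8-led, 253 in Xcl1-led and 232 in Gzmc-led cells. Over classes it was highest in NK cell/ILC-like (205 and 211 CPM) and T cell-like cells (169 and 190). ZsG-negative pDC-like cells at 122 (108 to 137) and B cell-like cells at 118 (68.5 to 188) followed. The lowest level was in ZsG-positive monocyte/macrophage-like cells at 19.1 (17.8 to 20.6).

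Cd53, a tetraspanin of nearly all leukocytes that is needed for normal L-selectin levels on lymphocytes, was present in every class. Its levels ran from 463 CPM (436 to 492) in ZsG-negative monocyte/macrophage-like cells to 104 (84.2 to 128) in ZsG-positive Ccr7-positive DC-like cells, the class where Cd63 was highest. A Cd53 UMI was found in 42.3% of those DC-like cells, against 77.8% to 97.0% of the cells in the other DC classes, without thinning. In thinned cells the shares were 12.7% against 25.3% to 63.6%. Tspan32, known from T cell and platelet biology, was at 82.9 CPM (42.9 to 145) in B cell-like cells, between 24.4 and 30.2 CPM in NK cell/ILC-like and T cell-like cells of both libraries, and close to 0 in pDC-like (1 UMI and 0 UMIs) and DC1-like cells (0 and 2 UMIs). Cd151, a partner of laminin-binding integrins, stayed at or below 15.3 CPM in all classes, and every neighbouring pair in its order overlapped. Classes further apart in that order did not all overlap. ZsG-positive monocyte/macrophage-like cells were at 15.3 CPM (14.1 to 16.6). The ZsG-negative NK cell/ILC-like cells were at 7.61 (6.29 to 9.12) and the ZsG-negative T cell-like cells at 3.05 (2.34 to 3.91).

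Over 35 class and subset sums with at least 50 cells, the likeness of patterns was described by Pearson's r of log2(CPM + 1). Many of these sums come from the same library, so r is a description. Cd63 was most like Cxcl16, C3ar1 and C1qb (r = 0.91, 0.90 and 0.90), all expressed by macrophages. Cd82 was most like Ppp1r16b, Sept1 and Ptprcap (0.94, 0.94 and 0.93), Cd37 most like Ogt, Hsd11b1 and Rsbn1l (0.91, 0.90 and 0.90), and Cd53 most like Samd9l, Gm4070 and Trim56 (0.84, 0.82 and 0.80). Cd81 was most like Pgk1, Tpi1 and Calm3 (0.81, 0.80 and 0.80), the first pair enzymes of glycolysis, Tspan32 most like Rasgrp1, Vamp5 and Ttc39b (0.79, 0.78 and 0.75), and Cd9 most like Lasp1, Tmem37 and Id2 (0.69, 0.66 and 0.64). Cd151 averaged under 10 CPM and was not ranked. Among members, Cd82 and Cd37 (0.79) and Cd63 and Cd81 (0.74) were most alike, while Cd63 ran against Cd37 and Cd82 (-0.56 each) and Cd81 against Cd53 (-0.54).

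The question of the sort was how immune cells that took up tumor material differ from those that did not, and for the members it was asked whether their transcripts differed between gates within a class. In monocyte/macrophage-like cells, Cd63 and Cd81 were far higher in the ZsG-positive library and Cd37 and Cd82 lower. Cd63 rested on 17 UMIs in 257 ZsG-negative cells (7.53 CPM, 4.39 to 12.1) and 10546 UMIs in 3153 ZsG-positive cells (279 CPM, 274 to 284), so that the log2 ratio was 5.17 (4.53 to 5.99). Its share of positive cells was 1.95% (0.635 to 4.48) against 27.4% (25.9 to 29.0) when cells were thinned to the same depth. Cd81 was at 3.10 CPM (7 UMIs) against 39.8 CPM (1504 UMIs), a log2 ratio of 3.58 (2.64 to 5.00). Among the 11785 genes with at least 20 UMIs in this class, Cd63 lay at the 99.7th and Cd81 at the 98.6th percentile of the log2 ratio.

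Of the remaining members in this class, Tspan32 was higher in ZsG-positive cells (10.6 against 25.4 CPM, log2 ratio 1.23, 0.67 to 1.91), as was Cd9 (50.9 against 77.8 CPM, 0.60, 0.34 to 0.89), although the mean over cells gave Cd9 -0.0521 (-0.27 to 0.19), and it was under 1.5-fold with thinned cells, other totals or the 5% mitochondrial limit. Cd37 was lower (64.2 against 30.3 CPM, -1.09, -1.33 to -0.82), and so were Cd82 (32.3 against 19.1 CPM, -0.77, -1.11 to -0.39) and Cd53 (463 against 319 CPM, -0.54, -0.63 to -0.45). In thinned cells Cd82 was at 0.44 (-0.55 to 1.88). For Cd151 (10.6 against 15.3 CPM) the interval of 0.50 ran from -0.06 to 1.18. Thus 6 of 8 members were past 1.5-fold, 4 higher and 2 lower, where 49.1% of all tested genes were past 1.5-fold (25.3% higher and 23.8% lower). A list of 8 NK cell genes, a cell type in which Cd37 and Cd82 were higher than in macrophages, summed to 438 CPM in the ZsG-negative and 49.8 CPM in the ZsG-positive cells of this class (8 of 8 seen in both), and its part in the lower Cd37, Cd53 and Cd82 was not tested. Different clusters made up the class in the gates: 195 of the 257 ZsG-negative cells were non-classical monocyte-like, and 1595 of the 3153 ZsG-positive cells were C1q macrophage-like. Melanocyte markers were also higher in the ZsG-positive cells, with 1 of 7 seen in ZsG-negative cells (0.886 CPM, Pmel, Mlana, Dct, Tyr, Slc45a2 and Trpm1 at 0) and 7 of 7 in ZsG-positive cells (24.5 CPM), and their part in the result was not tested.

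Classical monocyte-like cells, with 58 and 775 cells, allowed the comparison inside a single cluster. Cd63 was at 7.26 CPM (4 UMIs) without ZsG and 41.9 CPM (252 UMIs) with it, which gave a log2 ratio of 2.36 (1.15 to 4.41). Cd9 was at 10.9 and 34.5 CPM (1.55, 0.52 to 3.13). Cd81 had 0 UMIs in the ZsG-negative cells and 92 in the ZsG-positive cells (15.3 CPM). It was 2.81-fold higher when the empty library is set to a floor of 3 counts, a value that leaves out the counting error of the other library. The direction of these 3 genes was thus the one seen over the whole class, with smaller differences for Cd63. Cd53 was lower (562 against 441 CPM, -0.35, -0.52 to -0.18), the interval of Cd37 held 0 (-0.51, -1.11 to 0.21), and Cd82 was at 16.3 and 17.3 CPM (0.01, -0.90 to 1.25), so that its difference over the class was not seen here. Past 1.5-fold were 35.9% of genes in this cluster, the NK cell list summed to 557 CPM (8 of 8) and 12.3 CPM (5 of 8, Klra8, Klra4 and Eomes at 0) in it and the macrophage list used further on to 1441 and 2663 CPM (8 of 8 each). In non-classical monocyte-like cells (195 and 32 cells) Cd63 had 6 UMIs (3.56 CPM, 1.31 to 7.75) and 2 UMIs (11.8 CPM, 1.42 to 42.5). No difference was detectable at this depth. Cd9 was at 58.8 CPM (99 UMIs) against 17.6 CPM (3 UMIs) in them, a ratio whose interval ran from -4.04 to -0.15. In this cluster 31.8% of genes were past 1.5-fold.

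**Figure D2:**
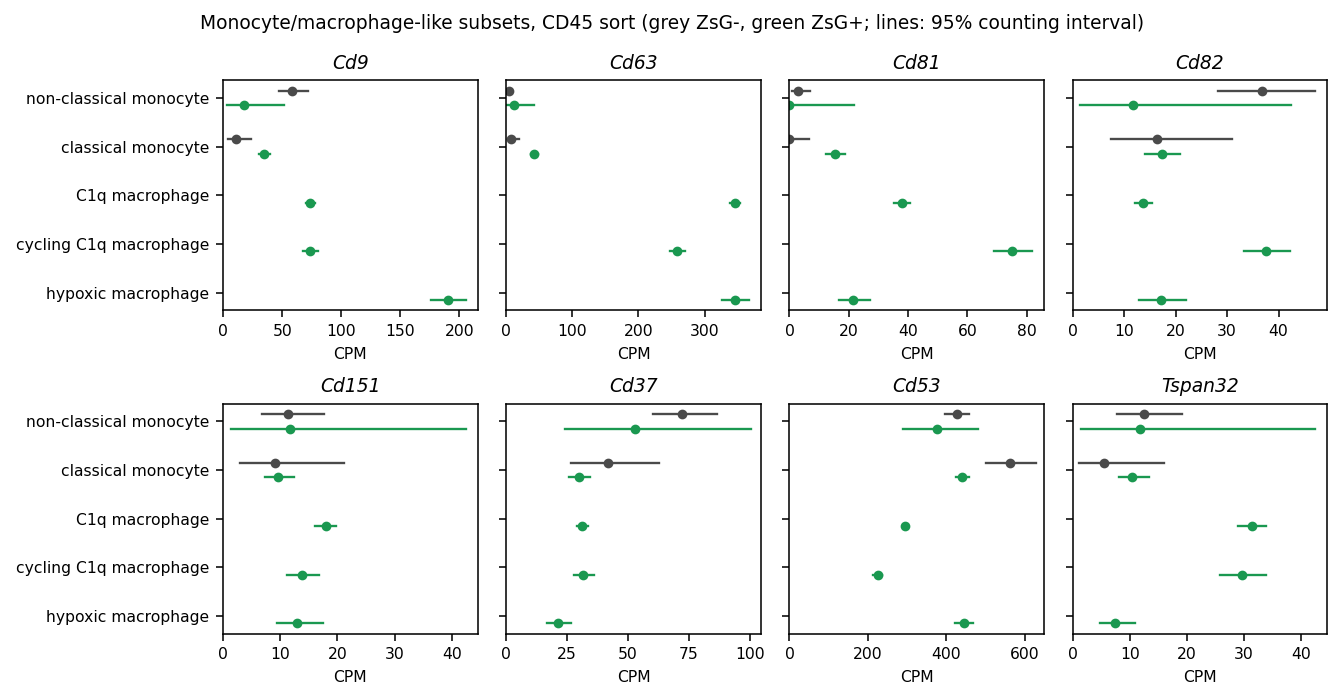
Level (CPM, x axes from 0) of each tetraspanin in the monocyte/macrophage-like subsets of the CD45 sort, grey points ZsG-negative and green points ZsG-positive, with 95% counting intervals as lines. Cd63 is near 346 CPM in both C1q and hypoxic macrophage-like cells and at 41.9 CPM in classical monocyte-like cells, while Cd9 stands out in the hypoxic cells at 190 CPM.

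Within the ZsG-positive library the macrophage states differed from each other in the members they carried. Cd63 was at 346 CPM in both C1q macrophage-like and hypoxic macrophage-like cells (log2 ratio of hypoxic over C1q cells 0.00, -0.09 to 0.09), at 259 CPM in cycling C1q macrophage-like cells and at 41.9 CPM in classical monocyte-like cells (-3.04 against C1q cells, -3.23 to -2.86). Cd9 was at 190 CPM in hypoxic cells and 73.9 CPM in C1q cells (1.36), whereas cycling cells were at 73.7 CPM. Cd81 was at 75.2 CPM in cycling cells against 37.8 CPM in C1q cells (0.99, 0.83 to 1.15) and 21.5 CPM in hypoxic cells (-0.80, -1.18 to -0.47). Cycling cells also had the highest Cd82, 37.5 against 13.7 CPM (1.46, 1.21 to 1.70), the gene that over classes was highest in NK cell/ILC-like and T cell-like cells. Tspan32 was at 31.3 CPM in C1q cells, 29.6 CPM in cycling cells and 7.37 CPM in hypoxic cells (-2.06, -2.72 to -1.51). Cd53 was higher in hypoxic (445 CPM) and classical monocyte-like cells (441 CPM) than in C1q (296 CPM) and cycling cells (225 CPM). Median UMIs were 6550.5, 7024, 11586 and 22141 in that order, and 86.7%, 92.8%, 92.5% and 96.2% of cells had a Cd53 UMI without thinning. Clusters were formed from the genes of the same cells, so these contrasts describe the states, although the members were not among the genes used.

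In DC2-like and DC1-like cells Cd63 was again higher with ZsG. The DC2-like cluster had 1 UMI in 66 ZsG-negative cells (1.39 CPM) and 674 UMIs in 420 ZsG-positive cells (106 CPM), so that the log2 ratio was 5.67 (3.77 to 11.56). Cd81 had 0 and 150 UMIs in them, 5.67-fold higher by the same floor, and Tspan32 1 and 94 UMIs (2.84, 0.90 to 8.73). Cd37 was lower, at 44.5 against 16.2 CPM (-1.47, -2.04 to -0.83), and Cd53 at 379 against 270 CPM (-0.49, -0.67 to -0.30). In DC1-like cells Cd63 had 0 and 86 UMIs, 7.08-fold higher by that floor, and Cd37 was at 82.5 and 50.6 CPM (-0.72, -1.30 to -0.07). Past 1.5-fold were 39.0% of genes in DC2-like and 32.8% in DC1-like cells. In pDC-like cells Cd63 had 7 UMIs (3.19 CPM, 1.28 to 6.56) and 2 UMIs (4.74 CPM, 0.574 to 17.1), so that no difference was detectable at this depth. Cd82 was lower in them at 122 against 56.8 CPM (-1.07, -1.77 to -0.50), as was Cd53 (-0.48, -0.81 to -0.18), and 32.9% of genes were past 1.5-fold. The 5% mitochondrial limit kept 43 of 241 ZsG-negative and 42 of 54 ZsG-positive pDC-like cells. The mitochondrial share of these cells thus differed between gates. Cd37 was at -0.36 (-0.71 to -0.04) but at 0.0719 in thinned cells, 0.0203 without cells of more than 1 macrophage UMI and 0.0099 at the 5% mitochondrial limit, each with an interval that held 0. The NK cell list moved with these genes, from 270 to 4.74 CPM in pDC-like cells (8 of 8 and 1 of 8 seen, Klre1 alone in the latter) and from 171 to 24.9 CPM in DC2-like cells (7 of 8, Eomes at 0, and 8 of 8), and its part in the lower values was not tested.

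Macrophage transcripts moved with Cd63 in DC2-like and DC1-like cells. A list of 8 macrophage genes (among them C1qa, C1qb, C1qc, Ms4a7, Adgre1, Csf1r and Fcgr1) summed to 223 and 3474 CPM in DC2-like cells of the ZsG-negative and ZsG-positive library, with 4 of 8 genes seen in the former (C1qa, C1qc and Ms4a7 among those at 0) and 8 of 8 in the latter. In DC1-like cells the sums were 40.0 and 1992 CPM (3 and 8 genes seen, C1qa, C1qb, C1qc and Ms4a7 among those at 0 without ZsG), and in pDC-like cells 28.2 and 436 CPM (6 and 8 seen, C1qc and Ms4a7 at 0 without ZsG). Of the Cd63-positive cells in the ZsG-positive library, 143 of 145 DC2-like and 18 of 18 DC1-like cells had more than 1 UMI of the list. Among all cells of these clusters in that library, with or without Cd63, 393 of 420 and 66 of 95 had more than 1 UMI of the list. Without cells of more than 1 such UMI, the Cd63 log2 ratio in DC2-like cells was 1.40 with an interval from -2.60 to 7.55. Of the Ccr7-positive DC-like cells, 44 of 63 Cd63-positive cells and 46 of all 71 cells were above 1 macrophage UMI. They stood apart with 25.3 Cd63 UMIs per 100 macrophage-list UMIs (23.1 to 27.6). The same library gave 3.06 (2.83 to 3.30) in DC2-like and 2.67 in DC1-like cells. It gave 3.45 (3.37 to 3.53) in C1q and 6.17 (5.82 to 6.55) in hypoxic macrophage-like cells.

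**Figure D3:**
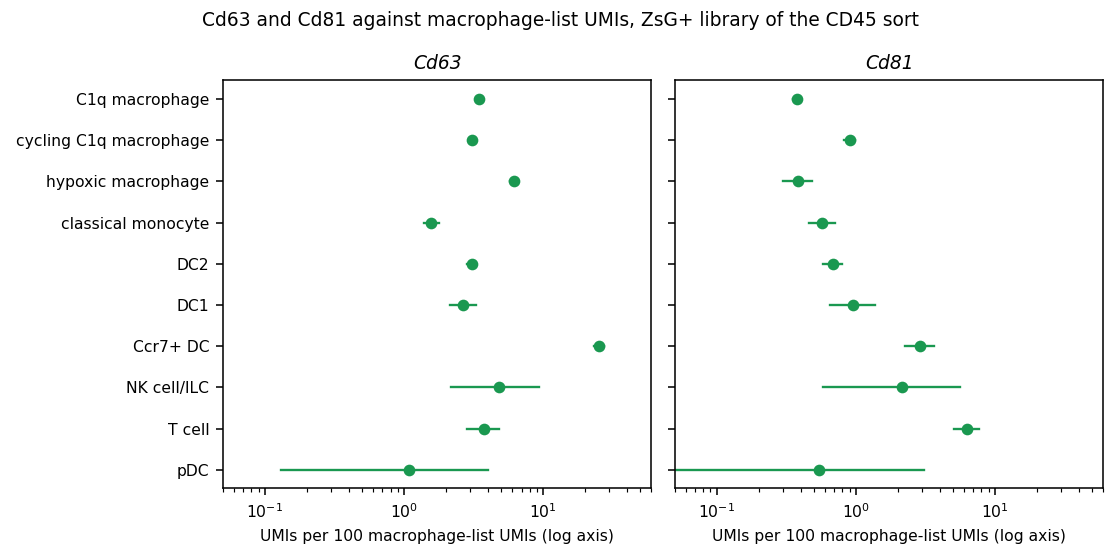
UMIs of Cd63 (left) and Cd81 (right) per 100 UMIs of the 8-gene macrophage list (log axis) in classes and subsets of the ZsG-positive library of the CD45 sort, with 95% counting intervals as lines. For Cd63, NK cell/ILC-like (4.84), T cell-like (3.73), DC2-like (3.06) and C1q macrophage-like cells (3.45) lie between classical monocyte-like (1.57) and hypoxic macrophage-like cells (6.17). Ccr7-positive DC-like cells lie far to the right (25.3).

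Among lymphocytes of the CD45 sort, Cd63 was higher in the ZsG-positive library, at a low level. T cell-like cells had 41 UMIs in 1536 ZsG-negative cells (2.02 CPM, 1.45 to 2.74) and 60 UMIs in 217 ZsG-positive cells (20.9 CPM), for a log2 ratio of 3.37 (2.77 to 3.98). Of the 41 UMIs in the ZsG-negative library, 19 came from 1 cell. NK cell/ILC-like cells had 43 UMIs in 2516 cells (2.80 CPM, 2.02 to 3.77) and 9 UMIs in 113 cells (17.0 CPM), a log2 ratio of 2.66 (1.38 to 3.66). At equal depth 0.398% and 4.46% of NK cell/ILC-like cells and 0.261% and 7.37% of T cell-like cells had a Cd63 UMI.

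Macrophage-list UMIs were higher in the same cells, from 13.7 to 560 CPM in T cell-like and from 8.00 to 351 CPM in NK cell/ILC-like cells, with all 8 genes seen in each sum but for Adgre1 at 0 in ZsG-positive NK cell/ILC-like cells. More than 1 such UMI was found in 2.28% of ZsG-negative and 58.5% of ZsG-positive T cell-like cells, and in 0.477% and 48.7% of NK cell/ILC-like cells. In the ZsG-positive library Cd63 stood at 3.73 UMIs per 100 macrophage-list UMIs in T cell-like cells (2.83 to 4.83) and 4.84 in NK cell/ILC-like cells (2.18 to 9.39). Both intervals hold the 3.45 of C1q and the 3.09 of cycling C1q macrophage-like cells, and neither holds the 1.57 of classical monocyte-like cells. The 6.17 of hypoxic macrophage-like cells lay inside the NK cell/ILC-like interval only. In ZsG-negative T cell-like cells Cd63 stood at 14.7 (10.4 to 20.5), and in ZsG-negative NK cell/ILC-like cells at 35.0 (24.1 to 49.8). Without the cells of more than 1 macrophage UMI, Cd63 kept a log2 ratio of 2.94 (1.76 to 3.94) in T cell-like cells, and in NK cell/ILC-like cells the 2.41 had an interval from -0.14 to 3.86. Melanocyte markers summed to 1.48 and 2.44 CPM in T cell-like cells (6 and 3 of 7 seen, Slc45a2 at 0 in both) and to 0.585 and 5.66 CPM in NK cell/ILC-like cells (5 and 2 of 7 seen, Tyr at 0 in both), and their part was not tested.

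Cd81 was set against the macrophage list in the same way. In T cell-like cells it was at 11.9 CPM (241 UMIs) and 35.1 CPM (101 UMIs), a log2 ratio of 1.57 (1.22 to 1.91), and at 1.66 (1.08 to 2.16) without cells of more than 1 macrophage UMI. It stood at 6.28 UMIs per 100 macrophage-list UMIs in ZsG-positive T cell-like cells, above the 0.377 of C1q and the 0.900 of cycling C1q macrophage-like cells. In ZsG-negative T cell-like cells Cd81 stood at 86.7 (72.6 to 103). Most of its UMIs were in the Hist1h1b-led cycling cluster, with 14.4 against 39.1 CPM (1.45, 1.08 to 1.80), whereas in the Bcl11b-led cluster the levels were 16.5 and 14.98 CPM (15.8% and 29.4% of all genes were past 1.5-fold in these clusters). In the Ikzf2-led cluster Cd81 had 2 and 3 UMIs. In NK cell/ILC-like cells the 2.54 and 7.54 CPM of Cd81 rested on 39 and 4 UMIs, with an interval from -0.37 to 3.04.

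Summed over the NK cell/ILC-like and over the T cell-like class, Cd53 was slightly lower in the ZsG-positive library, and the remaining members were less uniform. In NK cell/ILC-like cells Cd53 was at 379 and 277 CPM (-0.45, -0.70 to -0.22), and Cd9 at 173 and 134 CPM (-0.36, -0.73 to -0.03). Without cells of more than 1 macrophage UMI the Cd9 value was 0.06 (-0.40 to 0.46). Cd37 was at 192 and 166 CPM (-0.20, -0.53 to 0.10). In T cell-like cells Cd9 was at 45.7 and 32.0 CPM (-0.51, -0.84 to -0.20), Cd37 at 93.9 and 71.0 CPM (-0.40, -0.62 to -0.19) and Cd53 at 238 and 197 CPM (-0.27, -0.40 to -0.14). Cd82 was at 169 and 190 CPM in them (0.18, 0.04 to 0.31). Within T cell-like clusters, ZsG-negative first, Cd53 and Cd37 went both ways. Cd53 was at 396 and 419 CPM in Ikzf2-led, 176.98 and 166.96 in cycling and 374 and 299.7 in Bcl11b-led cells. Cd37 was at 162 and 141, 64.2 and 50.4 and 177.9 and 202 CPM in the same order. Cycling cells held 14481953 of 20318475 class UMIs in the ZsG-negative and 2401710 of 2873804 in the ZsG-positive library. The part of cluster mix in the class differences was not tested. With classes drawn from marker UMIs in each cell, the signs in T cell-like cells turned for Cd9 (0.27, 0.09 to 0.44), Cd82 (-0.47, -0.58 to -0.36) and Cd53 (0.0728, an interval that held 0). Tspan32 was at 25.5 and 30.2 CPM in NK cell/ILC-like and 24.4 and 29.2 CPM in T cell-like cells, and its intervals, like those of Cd151, held 0 in both. Without cells of more than 1 macrophage UMI, Tspan32 in T cell-like cells was at 0.75 (0.23 to 1.21). In each class 2 of 8 members, Cd63 and Cd81, were past 1.5-fold, both higher, where 29.4% of genes in NK cell/ILC-like cells (17.0% higher) and 17.9% in T cell-like cells (10.4% higher) were. In NK cell/ILC-like cells the share of members was thus near that of all genes. In NK cell/ILC-like cells the count was 1 (Cd53, lower) with thinned cells, 0 at a minimum of 100 UMIs and 5 (3 higher and 2 lower) with classes from marker UMIs, which gave 4 (3 higher and 1 lower) in T cell-like cells.

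**Figure D4:**
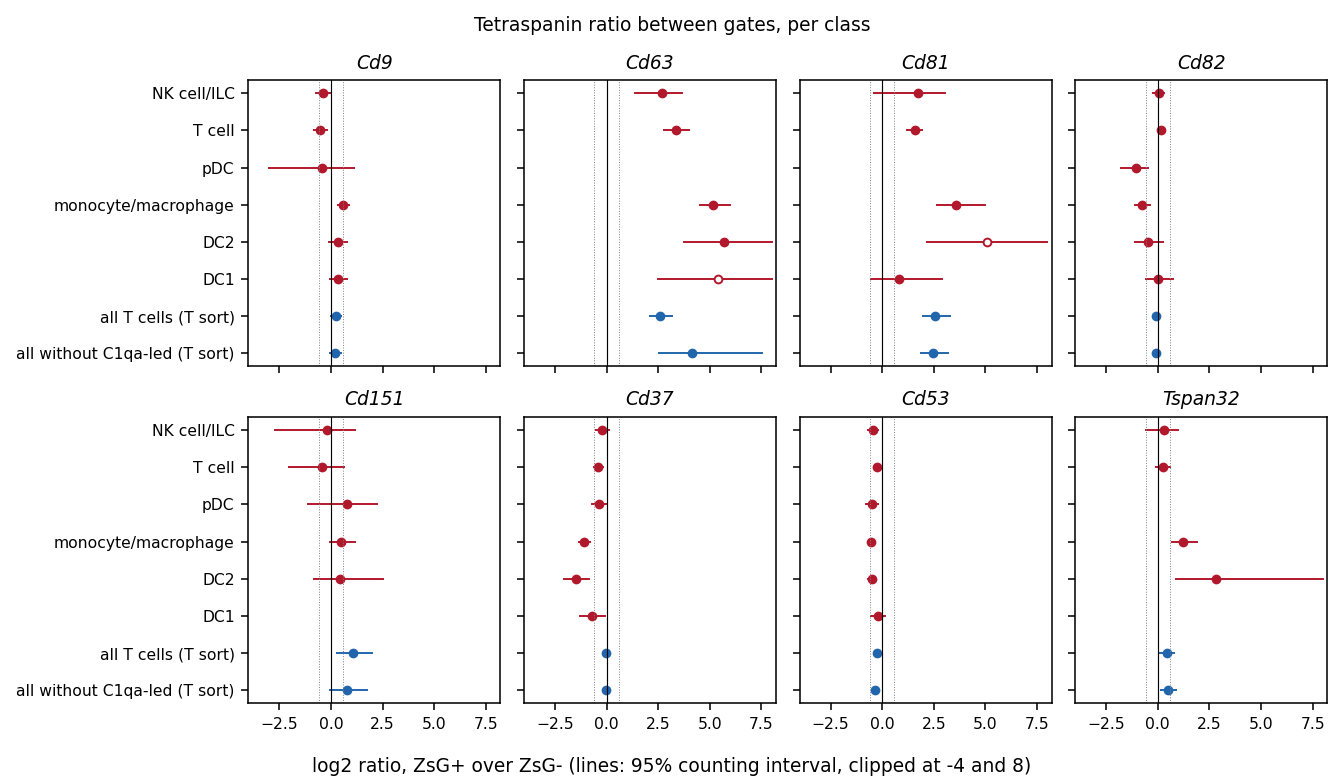
Log2 ratio of ZsG-positive over ZsG-negative for each tetraspanin (panels) and class (y axis), with 95% counting intervals as lines drawn no further than the axis from -4 to 8. Cd63 lies to the right of 0 in monocyte/macrophage-like (5.17), DC2-like (5.67), T cell-like (3.37) and NK cell/ILC-like cells (2.66), and Cd53 to the left in each of them.

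The separate T cell sort allowed the members to be followed in T cell subsets. Over all cells passing the limits, Cd63 was at 6.91 CPM (34 UMIs in 6 cells) in the library taken as ZsG-negative and 42.3 CPM (321 UMIs in 50 cells) in that taken as ZsG-positive, a log2 ratio of 2.59 (2.10 to 3.17). Cd81 was at 4.88 and 29.6 CPM (24 UMIs in 18 cells and 225 UMIs in 78 cells), a log2 ratio of 2.58 (1.99 to 3.28), and Cd151 at 3.25 and 6.98 CPM (1.07, 0.27 to 2.01). Tspan32 (21.5 and 29.4 CPM, 0.44, 0.11 to 0.79) and Cd9 (49.99 and 59.5 CPM, 0.25, 0.02 to 0.48) were slightly higher and Cd53 (346 and 286 CPM, -0.27, -0.36 to -0.18) slightly lower. The intervals of Cd82 (-0.11) and Cd37 (-0.05) held 0. Past 1.5-fold were 3 of 8 members, all higher, against 20.2% of genes (13.2% higher).

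Those values depended on which barcodes counted as T cells. The limit on CD3 transcripts, at least 0.055% of UMIs, removed 289 barcodes of the library taken as ZsG-negative and 1099 of the other. With these barcodes kept, 0 of 8 members were past 1.5-fold, with Cd63 at -0.21 (-0.31 to -0.11), Cd81 at 0.16 (-0.09 to 0.41) and Cd151 at -0.17 (-0.58 to 0.26). The removed barcodes had more Cd63 than the kept ones and in the opposite order, 381 CPM against 191 CPM (-0.99, -1.10 to -0.89), and Cd81 at 52.6 against 23.2 CPM (-1.18, -1.47 to -0.89), where 14.9% of genes were past 1.5-fold. Macrophage-list genes summed to 3295 and 2360 CPM in them (8 of 8 seen in both) and melanocyte markers to 925 CPM (7 of 7) and 18.1 CPM (6 of 7, Tyr at 0).

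Among the kept cells, a cluster led by C1qa and without a T cell name (9 and 60 cells) carried 261 of the 321 Cd63 UMIs of the library taken as ZsG-positive, at 235 CPM in 27 of its 60 cells. Its macrophage list summed to 4911 CPM (8 of 8 seen). Without this cluster, Cd63 was at 0.425 CPM (2 UMIs) and 9.26 CPM (60 UMIs in 23 cells), and 26 of those 60 UMIs were in 1 Treg-like cell, without which the level was 5.27 CPM. The Cd63 log2 ratio was then 4.13 (2.53 to 7.52, that cell included), and Cd81 was nearly as before, at 5.10 and 28.9 CPM (2.47, 1.88 to 3.18). In these cells 3 of 8 members were past 1.5-fold against 19.0% of genes, although the interval of Cd151 held 0 (0.80, -0.05 to 1.76), and the macrophage list summed to 15.1 and 54.5 CPM.

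**Figure D5:**
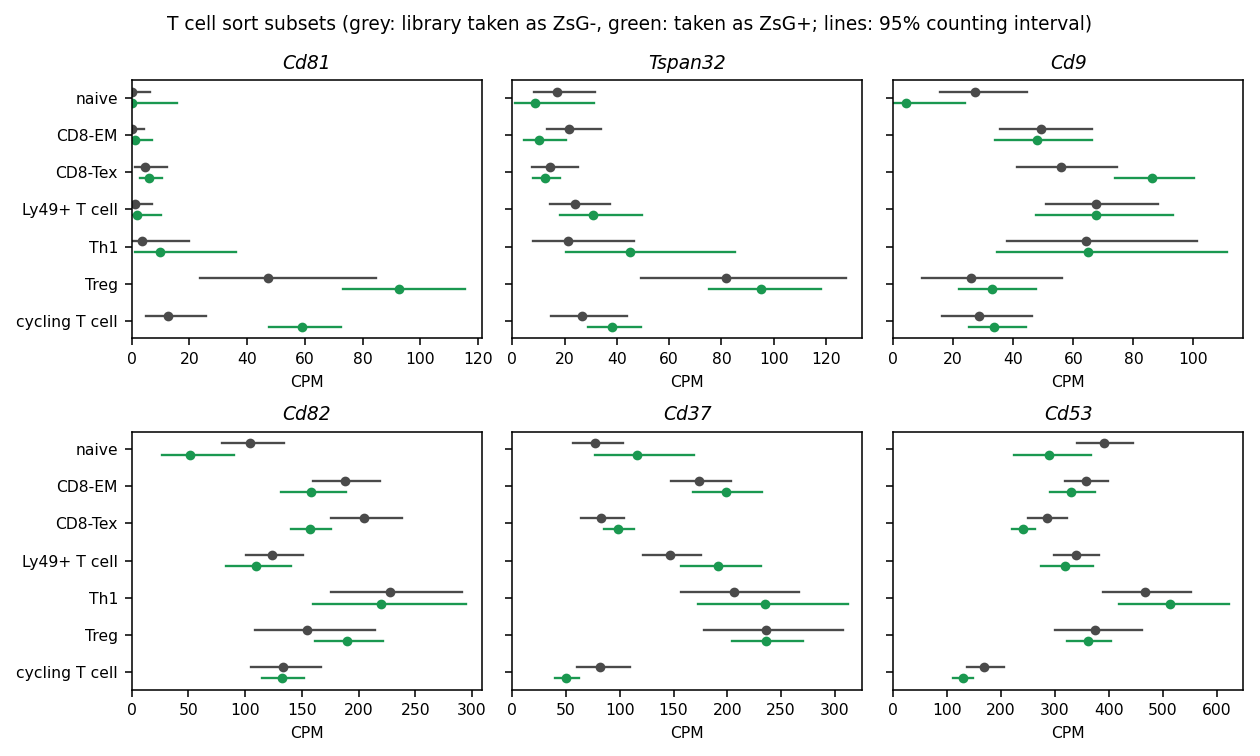
Level (CPM, x axes from 0) of 6 tetraspanins in the named subsets of the T cell sort, grey points the library taken as ZsG-negative and green points that taken as ZsG-positive, with 95% counting intervals as lines. Cd81 is high in Treg-like (47.3 and 92.6 CPM) and cycling T cells (12.4 and 59.0 CPM) and at most 9.99 CPM in the other subsets drawn, and Tspan32 is highest in Treg-like cells.

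Cd81, needed for full Treg suppressive function in mice, was highest in Treg-like and cycling cells of the library taken as ZsG-positive among the named subsets of this sort. In Treg-like cells it was at 47.3 CPM (11 UMIs in 9 of 35 cells) and 92.6 CPM (79 UMIs in 30 of 114 cells), a log2 ratio of 0.91 (0.05 to 2.03). In cycling T cells it was at 12.4 CPM (7 UMIs in 4 of 20 cells) and 59.0 CPM (91 UMIs in 23 of 63 cells), a ratio of 2.15 (1.14 to 3.60). More than 1 macrophage UMI was found in 0 of those 23 cells and in only 2 of all 63. Melanocyte markers summed to 0 and 9.07 CPM in the cycling cells (0 and 5 of 7 seen), and their part in this difference was not tested. After thinning, the Cd81 log2 ratio in cycling T cells was -0.21, from few UMIs. In the C1qa-led cluster of the library taken as ZsG-positive Cd81 was at 34.2 CPM (38 UMIs in 15 of 60 cells). In the remaining named subsets Cd81 was scarce, with 3.56 and 9.99 CPM (1 and 2 UMIs) in Th1-like cells, 0 UMIs in both libraries in naive-like cells, 4.76 and 5.95 CPM in CD8-Tex-like cells, 0 and 1.30 CPM in CD8-EM-like cells and 1.25 and 1.82 CPM in Ly49-positive T cell-like cells. The numbers of Treg-like and cycling cells were larger in the library taken as ZsG-positive, and the part of subset mix in the Cd81 and Tspan32 differences over all T cells was not tested.

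Treg-like cells stood above the other cells of their own library for 3 members. Cd81 was at 92.6 against 21.7 CPM in the library taken as ZsG-positive (log2 ratio 2.10, 1.68 to 2.50) and at 47.3 against 2.77 CPM in the other (4.10, 2.79 to 5.37). Tspan32 was at 94.96 against 21.1 CPM (2.18, 1.76 to 2.58) and at 81.7 against 18.6 CPM (2.17, 1.34 to 2.87). Cd37 was at 236 against 112 CPM (1.08, 0.84 to 1.30) and 0.94 higher on the log2 scale in the other library (0.50 to 1.33). Th1-like cells had a similar Cd37 level. It was 235 CPM (172 to 312) in the library taken as ZsG-positive and 206 CPM (157 to 267) in the other. Both intervals overlapped those of Treg-like cells. Between the libraries Tspan32 (0.19, -0.52 to 1.02) and Cd37 (-0.01, -0.44 to 0.45) of Treg-like cells had intervals that held 0. Of all genes in Treg-like cells 29.4% were past 1.5-fold.

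Relative to all UMIs, cycling T cells had less Cd53 than the other cells in both libraries (that taken as ZsG-positive first). The levels were 129 against 327 CPM (-1.34) and 169 against 369 CPM (-1.12), and Cd37 was lower too (-1.53 and -0.72). Cycling T cells were deeper, with medians of 21726 and 27360 UMIs against 6501 and 5799 over all T cells. Without thinning, 88.9% and 100% of them had a Cd53 UMI, against 83.7% and 85.1% of all T cells. Fewer transcripts per cell were thus not shown. Between libraries, ZsG-negative first, Cd37 was at 81.8 and 49.9 CPM in cycling T cells (-0.72, -1.26 to -0.15), with 19.8% of genes past 1.5-fold. CD8-Tex-like cells, the exhausted CD8 T cells, had Cd9 at 56.0 CPM (47 UMIs) and 86.3 CPM (174 UMIs), a log2 ratio of 0.61 (0.15 to 1.12) where 17.3% of genes were past 1.5-fold, and Cd82 at 205 and 157 CPM (-0.38, -0.65 to -0.10). Cd9 in CD8-Tex-like cells of the library taken as ZsG-positive was also above the remaining cells of that library, 86.3 against 49.8 CPM (0.79, 0.51 to 1.07). Cd63 in them had 0 and 18 UMIs, 9 of them in 1 cell. In naive-like cells Cd82 was at 104 and 51.7 CPM (-0.97, -2.04 to -0.11) and Cd53 at 390 and 289 CPM (-0.43, -0.85 to -0.04), with 23.8% of genes past 1.5-fold.

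The wider family and the machinery around it were read from fixed lists, whose counts take genes with at least 20 UMIs. Of 23 other tetraspanins, 2 were past 1.5-fold higher and 4 lower among the 10 counted in monocyte/macrophage-like cells, with a median log2 ratio of -0.04 against 0.00 over all genes, of which 49.1% were past 1.5-fold. Tspan4, which marks migrasomes, had 0 and 910 UMIs there (24.1 CPM), Tspan13 was at 139 and 28.5 CPM (-2.29), Tspan3 at 12.8 and 30.1 CPM (1.204) and Tspan14, a partner of ADAM10, at 49.2 and 21.5 CPM (-1.196). In NK cell/ILC-like cells 2 of 9 were higher and 3 lower (29.4% of all genes either way), in T cell-like cells 1 and 1 of 11 (17.9%), and over all T cells of the T cell sort 2 and 0 of 10 (20.2%), or 1 and 0 of 8 without the C1qa-led cluster (19.0%). They were 1 and 4 of 9 in DC2-like cells (39.0%), 2 and 1 of 7 in DC1-like cells (32.8%) and 1 and 2 of 6 in pDC-like cells (32.9%). Tspan14 was lower in T cell-like cells too, at 12.99 and 5.22 CPM (-1.27, -2.17 to -0.57).

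Of 13 partners of tetraspanins, 2 were higher and 4 lower of 10 in monocyte/macrophage-like cells (median -0.17, with 49.1% of all genes past 1.5-fold). The integrin chain Itga6 was at 1.77 and 12.1 CPM (2.60), Itga4 at 524 and 145 CPM (-1.85), the hyaluronan receptor Cd44 at 690 and 294 CPM (-1.23) and Igsf8, which encodes the CD9 and CD81 partner EWI-2, at 19.0 and 43.6 CPM (1.18). Igsf8 was also higher in T cell-like cells, at 13.7 and 20.9 CPM (0.61, 0.18 to 1.01), together with the protease gene Adam17 at 26.7 and 42.5 CPM (0.67), while Itga6 was lower there at 13.3 and 7.66 CPM (-0.77). Counts for the partners were 0 higher and 2 lower of 10 in NK cell/ILC-like cells (29.4% of all genes either way), 3 and 1 of 11 in T cell-like cells (17.9%) and 2 and 1 of 10 over all T cells (20.2%), or 1 and 1 of 9 without the C1qa-led cluster (19.0%). They were 3 and 1 of 9 in DC2-like cells (39.0%), 4 and 1 of 8 in DC1-like cells (32.8%, median 0.54) and 2 and 2 of 7 in pDC-like cells (32.9%). In Treg-like cells of the T cell sort 0 were higher and 4 lower of 7 (29.4%, median -0.80).

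Of the 17 genes of multivesicular bodies and exosomes, 0 were higher and 2 lower of 16 counted in monocyte/macrophage-like cells (median 0.13, with 49.1% of all genes past 1.5-fold), those being Rab27a, a GTPase of vesicle release, at 18.6 and 6.70 CPM (-1.49) and Flot2 at 41.2 and 25.2 CPM (-0.71), with the syntenin gene Sdcbp at 373 and 526 CPM (0.50). In NK cell/ILC-like cells 1 of 17 was higher and 0 lower (29.4% of all genes either way), and over all T cells 0 and 0 of 15, with or without the C1qa-led cluster (20.2% and 19.0%). In DC2-like cells 3 were higher and 3 lower of 16 (39.0%), in DC1-like cells 3 and 2 of 15 (32.8%) and in pDC-like cells 3 and 1 of 15 (32.9%). In T cell-like cells 2 were higher and 1 lower of 17 (17.9%), with the lysosomal membrane genes Lamp1 at 44.8 and 84.9 CPM (0.92, 0.71 to 1.13) and Lamp2 at 28.1 and 48.0 CPM (0.78, 0.49 to 1.04), in the same cells whose macrophage-list UMIs were higher.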

How the data were processed

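The deposited values are UMI counts of each gene in each cell barcode. Per the file headers and the submitters' processing notes, the authors used Cell Ranger on mm10 (6.1.2 in the notes and the T cell header, 7.0.0 in the CD45 header) and combined both libraries of a sort, and no source used here says if depth was evened out. The 8 members and all lists were chosen with earlier results of these data known.

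Cells with 1000 to 6000 genes and at most 10% mitochondrial UMIs (CD45 sort), or 50 to 6000 genes, at most 15% and at least 0.055% CD3 UMIs (T cell sort), were clustered with Seurat 5.3.0 in R 4.3.3 (genes in at least 3 cells, 2000 variable genes without the members, 20 components, resolution 0.8 and 1.2). Clusters were named from marker lists. Doublets were not removed. Of the marker lists, the macrophage, melanocyte and NK cell values stand in the report.

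UMIs were summed per class and library with pandas 2.3.3, scipy 1.17.1 and numpy 2.4.6 under Python 3.11.15, for groups of at least 20 cells, and plotted with matplotlib 3.10.9. Intervals are exact Poisson for CPM, Clopper-Pearson for shares and exact conditional for ratios. With 1 library per gate no test was made: a gene counted as past 1.5-fold if it had at least 20 UMIs over both libraries. These steps were tested on simulated data. Named beside the members were the 3 genes most like each member (mean of at least 10 CPM) and up to 4 genes per list with the largest log2 ratio among those of at least 100 UMIs. Promoter windows of 250 bases before the RefSeq start were searched for motifs, and stretches that GENCODE places in exons were not printed. Alternatives were means over cells, TMM factors (edgeR 4.0.16), totals that leave out ribosomal protein and mitochondrial genes, thinning to 2000 UMIs, leaving out cells with more than 1 macrophage UMI, a mitochondrial limit of 5%, classes from marker UMIs in each cell, no minimum or 100 UMIs, no CD3 limit and, added after the data were seen, leaving out the C1qa-led cluster. The values of 1 gene of the macrophage list are not reported here by name.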

Additional observations from a re-analysis of the deposited data

Results flagged for a closer look

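The difference between gates had opposite signs in different classes of the CD45 sort for 2 members, with intervals that did not hold 0, and whether the classes differ was not tested. The Cd9 log2 ratio was 0.60 in monocyte/macrophage-like cells, -0.36 in NK cell/ILC-like cells and -0.51 in T cell-like cells. The Cd82 log2 ratio was 0.18 in T cell-like cells, -0.77 in monocyte/macrophage-like cells and -1.07 in pDC-like cells. Most of these signs turned under an alternative: Cd9 was -0.0521 in monocyte/macrophage-like cells as a mean over cells, 0.063 in NK cell/ILC-like cells without cells of more than 1 macrophage UMI and 0.27 in T cell-like cells with classes from marker UMIs, and Cd82 was -0.47 in T cell-like cells with those classes and 0.44 in monocyte/macrophage-like cells after thinning.

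Barcodes of the T cell sort under the CD3 limit entered the comparison of T cells only in the alternative without that limit, and some of them carried tumor transcripts. At least 10 melanocyte-list UMIs were found in 17 of 289 such barcodes in the library taken as ZsG-negative (5.88%, 3.46 to 9.25) and in 2 of 1099 in that taken as ZsG-positive (0.182%, 0.0220 to 0.656), against 0 of 659 and 1 of 780 kept T cells. Outside the limits on genes and mitochondrial UMIs the share was similar in both libraries, with 14 of 188 barcodes (7.45%, 4.13 to 12.2) and 35 of 517 (6.77%, 4.76 to 9.29). The 17 barcodes under the CD3 limit held 332 of the 1165 Cd63 UMIs of those 289 barcodes, and no level is given for so few.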

How the results depend on the processing

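Each gate was 1 library, so no value measures the spread between mice, and intervals cover counting error only. No paired analysis was possible because each gate had 1 library and no result came from a test. The number of members past 1.5-fold stayed within 1.5 times its value in 31 of 36 alternatives. The others were NK cell/ILC-like cells, 2 as reported, 1 with thinned cells (Cd53, lower), 5 with classes from marker UMIs and 0 with at least 100 UMIs, T cell-like cells, 2 as reported and 4 with classes from marker UMIs, and all T cells, 3 as reported and 0 without the CD3 limit. In monocyte/macrophage-like cells the number was 5 or 6 throughout, but the genes counted changed. With thinned cells Cd9 and Cd82 dropped out and Cd151, higher, came in. With other totals, means over cells or the 5% mitochondrial limit Cd9 dropped out.

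The sign changed in 15 recomputed log2 ratios whose reported interval did not hold 0, 68 others lay outside the reported interval, and the remaining 768 lay inside it, sign changes of ratios near 0 among them. With classes from marker UMIs, T cell-like cells had Cd9 at 0.27, Cd82 at -0.47 and Cd53 at 0.0728. In thinned cells Cd82 was 0.44 in monocyte/macrophage-like cells, Cd37 0.0719 in pDC-like cells, Cd63 -0.0137 in Treg-like cells and Cd81 -0.21 in cycling T cells. Averaged over cells, Cd9 was -0.0521 in monocyte/macrophage-like cells. Without cells of more than 1 macrophage UMI, Cd9 was 0.063 in NK cell/ILC-like cells and Cd37 0.0203 in pDC-like cells, where it was 0.0099 at the 5% mitochondrial limit. Without the CD3 limit, all T cells had Cd9 at -0.0683, Cd63 at -0.21, Cd151 at -0.17 and Tspan32 at -0.067. Except where fewer cells or UMIs entered by construction, the cause was not tested. Over all ratios, near 0 or not, the sign was kept in 142 of 145 with TMM factors, 141 with other totals, 130 with means over cells, 117 with thinning, 118 of 130 at the 5% mitochondrial limit, 95 of 109 without cells of more than 1 macrophage UMI, 17 of 24 with classes from marker UMIs and 3 of 8 without the CD3 limit.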
